A study of Mus musculus with 3 samples.

Results

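S100 proteins, annexins and galectins are small families of calcium-binding and sugar-binding proteins many of whose transcripts are known to be low in naive CD8+ T cells and high after antigen experience. A set of 10 of their genes was followed here: S100a4, S100a6, S100a10, S100a11, Anxa1, Anxa2, Anxa5, Anxa6, Lgals1 and Lgals3. A gene entered through every probe set that the platform annotation assigns to it and to no other gene, which gave 18 probe sets for 9 of the 10 genes, out of 18193 genes on the array. S100a11 had no such probe set. Its only probe set is shared with the pseudogene S100a11-ps and with Gm12854, and is described apart.

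The study asked what makes T cells that lack the type II receptor of transforming growth factor β (TGF-β), a cytokine that restrains T cells, pathogenic when they carry the natural killer (NK) cell marker NK1.1. Sorted mouse CD8+ T cells of 3 groups were profiled on Affymetrix mouse 430 2.0 arrays, with 1 array for each group. KO NK1.1+ and KO NK1.1− cells came from Tgfbr2 fl/fl mice with Cd4-Cre, 15 to 17 days of age. Control cells came from Tgfbr2 fl/wt littermates that carry the same Cre, so controls too had Cre and could lose 1 receptor allele. The control cells are called NK1.1− in some of the labels and total CD8+ cells in another, so their gate is not settled. Cre driven by Cd4 regulatory sequence acts at the thymocyte stage that precedes the CD4 and CD8 lineages, so the deletion is not limited to CD8+ cells. The labels do not say whether RNA was pooled over mice. Since each group has a single array, there is no spread between mice, no test was possible, and every difference below is between 2 arrays.

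S100 proteins are EF-hand calcium sensors that bind target proteins, often at the membrane or the cytoskeleton. Annexins bind acidic phospholipids when calcium rises, and several work in pairs with an S100 protein: S100A10 with annexin A2, and S100A11 with annexin A1. Galectins are lectins that bind β-galactosides on surface glycoproteins such as CD45 and CD43 and tune receptor mobility and T cell death. In memory and effector CD8+ T cells these genes are used as markers of a migratory, antigen-experienced state.

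The values are probe set intensities on a linear scale. A value was taken as measured at or above 9.57, the 95th percentile of 142 probe sets of genes that T cells are not known to use, such as olfactory receptors. Lower values were raised to 9.57 before a log2 difference was taken, and a gene was called higher or lower at a difference of at least 2-fold (1 on the log2 scale). A gene's own value is that of its brightest probe set, and all 9 genes were measured on all 3 arrays. Of the 18 probe sets, 15 were measured on every array, and the other 3 (1 of Anxa1 and 2 of Anxa2) on none. Intensities of different probe sets are not compared with each other, and a sum over probe sets mostly follows the brightest of them.

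In receptor-deficient NK1.1− cells, 7 of the 9 genes were at least 2-fold above control and 0 below. They were Lgals3, S100a6, S100a4, Anxa1, Anxa2, Lgals1 and S100a10, in order of the difference. Anxa5 and Anxa6 differed by at most 1.05-fold. Among all 10099 genes measured on either array, 7.97% were called higher and 5.54% lower. The median log2 difference was 2.47 over the 9 genes and 0.01 over all genes. In receptor-deficient NK1.1+ cells 5 of the 9 genes were at least 2-fold above control, while Anxa5 and Anxa6 were below it. The background on these deposited values was 9.72% of 10659 genes called higher and 22.5% lower. With arrays scaled to their hybridisation controls 2 of the 9 genes were called higher and 3 lower. On that scale 325 of 10425 measured genes were called higher and 6521 lower. The median log2 difference in KO NK1.1+ against control was 1.04 over the 9 genes and -0.17 over all genes. With scaling to the hybridisation controls these medians were -0.20 and -1.31. The KO comparisons share the control array, so they are not independent of each other.

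**Figure D1:**
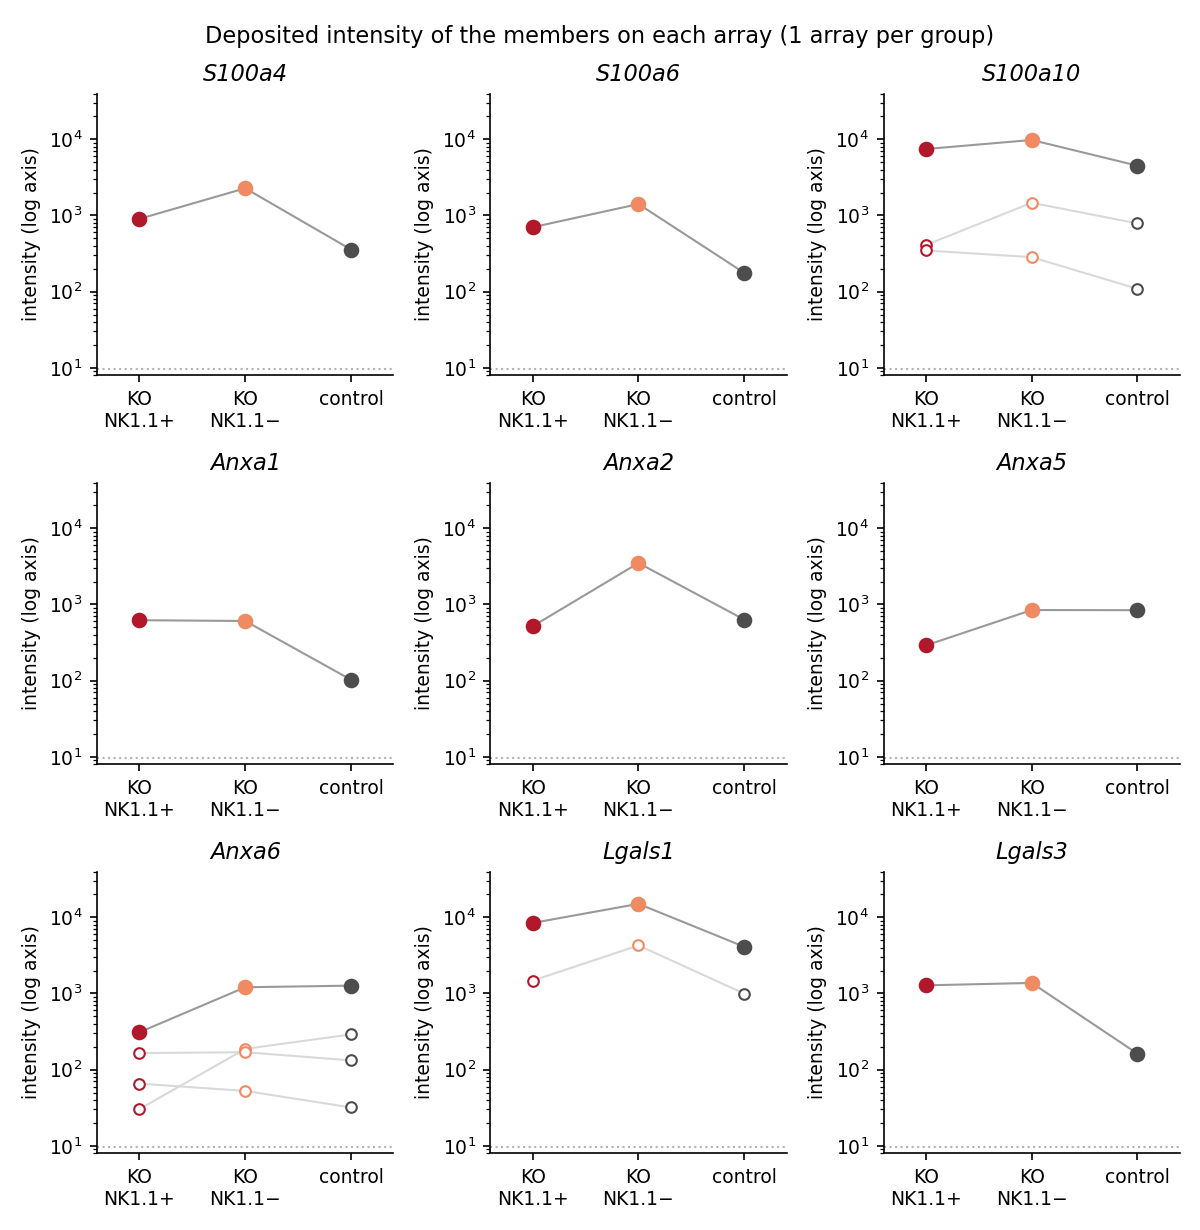
Deposited intensity (log axis) of each of the 9 genes on the KO NK1.1+, KO NK1.1− and control arrays, with filled points for the brightest probe set of a gene, open points for its other measured probe sets and a dotted line at the measured level of 9.57. S100a4, S100a6, Lgals1 and Anxa2 peak on the KO NK1.1− array, Anxa1 and Lgals3 are about level on both KO arrays, and the brightest probe sets of Anxa5 and Anxa6 are low on the KO NK1.1+ array alone.

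S100a4 encodes a calcium sensor that binds nonmuscle myosin IIA and promotes motility. It read 903 in KO NK1.1+, 2279 in KO NK1.1− and 357 in control cells. Both KO arrays lay above control, by 2.53-fold in NK1.1+ and 6.37-fold in NK1.1− cells, and the NK1.1+ array lay 2.52-fold below the NK1.1− array. The difference in NK1.1+ cells shrank to 0.10 on the log2 scale with scaling to the hybridisation controls. In the NK1.1− comparison 95 of 10099 measured genes had a larger difference upward.

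S100a6 encodes calcyclin, whose partners include the calcyclin-binding protein CACYBP and the co-chaperone SUGT1. It read 702 in KO NK1.1+, 1414 in KO NK1.1− and 177 in control cells, so the arrays stood in the same order as for S100a4. The KO NK1.1+ array was 3.97-fold and the KO NK1.1− array 8.01-fold above control, and 58 of 10099 genes exceeded the second of these differences. With scaling to the hybridisation controls the log2 difference in NK1.1+ cells was 0.75. Between the KO arrays S100a6 was 2.02-fold lower in NK1.1+ than in NK1.1− cells, a difference that fell below 2-fold with an offset of 32, with quantile normalization and with centring on the median gene (log2 differences of -0.98, -0.83 and -0.70).

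S100a10 encodes p11, the partner of annexin A2, an S100 protein whose EF hands no longer bind calcium. Its brightest probe set read 7462 in KO NK1.1+, 9813 in KO NK1.1− and 4505 in control cells. These are differences from control of 1.66-fold in NK1.1+ and 2.18-fold in NK1.1− cells. A second S100a10 probe set read 347 in KO NK1.1+, 284 in KO NK1.1− and 109 in control cells, and the third read 410 in KO NK1.1+, 1469 in KO NK1.1− and 787 in control cells. All 3 S100a10 probe sets were thus above control in KO NK1.1− cells, with log2 differences from 0.90 to 1.38. In KO NK1.1+ cells they disagreed in sign, from -0.94 to 1.67, so no direction is given for S100a10 there. The brightest of them also turns to -0.51 when arrays are scaled to their hybridisation controls.

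The probe set shared by S100a11, S100a11-ps and Gm12854 read 1483 in KO NK1.1+, 2275 in KO NK1.1− and 784 in control cells. It was 1.89-fold above control in NK1.1+ and 2.90-fold in NK1.1− cells, in the order seen for S100a4 and S100a6, but it was below control in NK1.1+ cells, by -0.32 on the log2 scale, when scaled to the hybridisation controls. Which of its 3 genes gave the signal cannot be told from the array, so the value is assigned to none of them.

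Anxa1 encodes annexin A1, an anti-inflammatory protein that signals through formyl peptide receptors. It read 622 in KO NK1.1+, 607 in KO NK1.1− and 103 in control cells. Anxa1 was 6.05-fold above control in NK1.1+ and 5.91-fold in NK1.1− cells, and the KO arrays differed by 1.02-fold. Scaling to the hybridisation controls, which were 4498 on the KO NK1.1+ array, 1786 on the KO NK1.1− array and 1905 on the control array, left Anxa1 above control in NK1.1+ cells (log2 difference 1.36) but put it below KO NK1.1− cells (-1.30).

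Anxa2 encodes annexin A2, which links membrane to actin and carries S100A10 in a tetramer. Its 1 measured probe set read 518 in KO NK1.1+, 3503 in KO NK1.1− and 633 in control cells. The KO NK1.1− array stood alone: it was 5.53-fold above control, while the KO NK1.1+ array was 1.22-fold below control and 6.76-fold below the KO NK1.1− array. Only 100 of 10653 measured genes were further below in the comparison of the KO arrays. The log2 difference from control in KO NK1.1+ cells was -0.04 with quantile normalization or centring and -1.53, past 2-fold, with scaling to the hybridisation controls. For its partner S100a10 the brightest probe set was 1.32-fold lower on the KO NK1.1+ than on the KO NK1.1− array and the third 3.58-fold lower, so the likeness to Anxa2 depends on the probe set.

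Anxa5 encodes annexin A5, which binds phosphatidylserine and is the reagent used to stain dying cells. It read 290 in KO NK1.1+, 846 in KO NK1.1− and 842 in control cells. The KO NK1.1+ array was 2.90-fold below control and 2.91-fold below the KO NK1.1− array, which was itself level with control. Of the measured genes, 1284 of 10659 were further below in the first of these comparisons and 970 of 10653 in the second.

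Anxa6 encodes annexin A6, an annexin with a doubled core that acts on membrane cholesterol and trafficking. Its brightest probe set read 310 in KO NK1.1+, 1208 in KO NK1.1− and 1268 in control cells, 4.09-fold below control in NK1.1+ cells. A second Anxa6 probe set read 30.3 in KO NK1.1+, 187 in KO NK1.1− and 290 in control cells, in the same direction. The other Anxa6 probe sets went the opposite way in KO NK1.1+ cells, at 165 in KO NK1.1+, 169 in KO NK1.1− and 132 in control cells, and at 65.5 in KO NK1.1+, 52.6 in KO NK1.1− and 31.9 in control cells. The 4 log2 differences of Anxa6 in KO NK1.1+ against control ran from -3.26 to 1.04, so its position below control rests on the choice of probe set. In KO NK1.1− cells all 4 stayed within 2-fold of control, from -0.63 to 0.72.

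**Figure D2:**
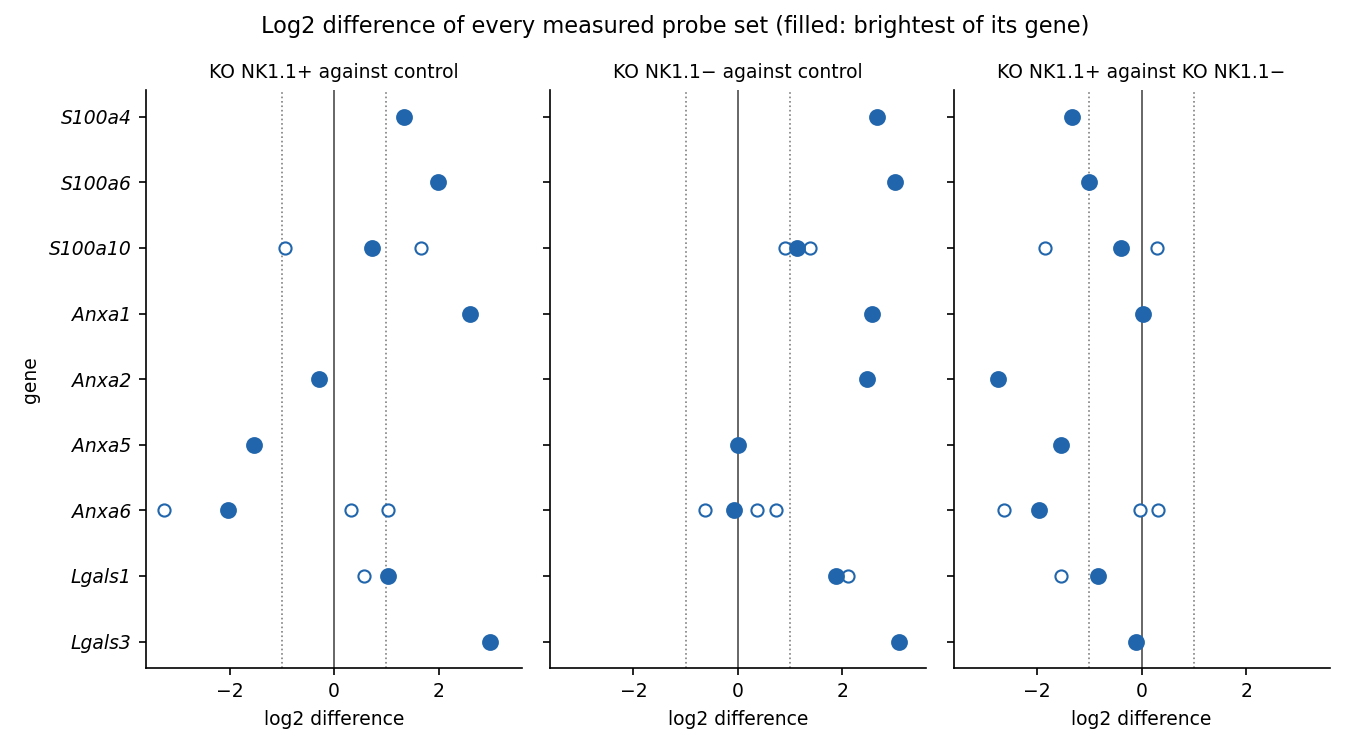
Log2 difference of each of the 15 probe sets measured on all 3 arrays, by gene, in the 3 comparisons, with filled points for the brightest probe set of a gene, open points for the others and dotted lines at 2-fold. The probe sets of S100a10 and Anxa6 spread from below to above 0 in KO NK1.1+ against control, and those of S100a10 and Lgals1 lie close together in KO NK1.1− against control.

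Lgals1 encodes galectin-1, a dimeric lectin that can kill or quiet activated T cells. Its brightest probe set read 8443 in KO NK1.1+, 15037 in KO NK1.1− and 4114 in control cells, and its other probe set 1476 in KO NK1.1+, 4278 in KO NK1.1− and 997 in control cells. Both placed the KO NK1.1− array highest, 3.66-fold and 4.29-fold above control. In KO NK1.1+ cells Lgals1 was 2.05-fold above control by the brighter and 1.48-fold by the dimmer probe set, and it turned to a log2 difference of -0.20 when arrays were scaled to the hybridisation controls.

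Lgals3 encodes galectin-3, which forms lattices on N-glycans and limits T cell receptor clustering. It read 1279 in KO NK1.1+, 1376 in KO NK1.1− and 162 in control cells. Both KO arrays lay far above control, by 7.90-fold in NK1.1+ and 8.50-fold in NK1.1− cells. Lgals3 had the largest difference of the 9 genes in both comparisons, exceeded by 170 of 10659 genes in NK1.1+ and by 53 of 10099 genes in NK1.1− cells. Between the KO arrays it differed by 1.08-fold, but with scaling to the hybridisation controls it was lower in KO NK1.1+ than in KO NK1.1− cells by more than 2-fold (log2 difference -1.44).

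Promoter sequence is shown for the 5 genes above control in KO NK1.1− cells that have an entry in the RefSeq table (build GRCm38.p6), and for Anxa5, which was level with control there. Entries were found for 7 of the 10 genes, the remaining one being S100a11. Each run is the 250 bases before the annotated start, 5′ to 3′ on the gene's strand. The windows are chr3:90603520-90603769 on the plus strand for S100a4, chr3:90612644-90612893 on the plus strand for S100a6, chr19:20390672-20390921 on the minus strand for Anxa1, chr9:69453433-69453682 on the plus strand for Anxa2, chr14:47373610-47373859 on the plus strand for Lgals3 and chr3:36475888-36476137 on the minus strand for Anxa5. Capitals mark matches to the motifs searched.
S100a4: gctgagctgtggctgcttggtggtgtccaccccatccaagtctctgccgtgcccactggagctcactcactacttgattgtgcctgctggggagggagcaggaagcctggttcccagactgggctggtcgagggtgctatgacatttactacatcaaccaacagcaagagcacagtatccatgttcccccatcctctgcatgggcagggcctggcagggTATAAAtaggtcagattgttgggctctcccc
S100a6: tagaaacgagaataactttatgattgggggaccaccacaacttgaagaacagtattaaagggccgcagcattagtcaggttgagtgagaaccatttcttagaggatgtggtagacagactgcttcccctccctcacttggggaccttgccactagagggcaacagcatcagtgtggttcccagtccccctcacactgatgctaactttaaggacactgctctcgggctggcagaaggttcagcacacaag
Anxa1: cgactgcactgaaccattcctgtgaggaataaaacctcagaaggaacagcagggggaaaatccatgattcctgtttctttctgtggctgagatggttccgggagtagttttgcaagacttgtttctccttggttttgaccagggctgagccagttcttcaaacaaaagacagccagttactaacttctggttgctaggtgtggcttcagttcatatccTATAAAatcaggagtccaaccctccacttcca
Anxa2: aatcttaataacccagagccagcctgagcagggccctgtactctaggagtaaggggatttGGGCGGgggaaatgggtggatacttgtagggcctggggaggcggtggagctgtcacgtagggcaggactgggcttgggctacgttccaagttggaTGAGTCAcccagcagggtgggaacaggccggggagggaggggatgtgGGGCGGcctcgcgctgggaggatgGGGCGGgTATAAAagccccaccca
Lgals3: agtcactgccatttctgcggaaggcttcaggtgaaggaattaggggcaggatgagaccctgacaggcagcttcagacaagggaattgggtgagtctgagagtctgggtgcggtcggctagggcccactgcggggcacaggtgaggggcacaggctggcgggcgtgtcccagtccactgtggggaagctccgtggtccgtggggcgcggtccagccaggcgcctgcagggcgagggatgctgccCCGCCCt
Anxa5: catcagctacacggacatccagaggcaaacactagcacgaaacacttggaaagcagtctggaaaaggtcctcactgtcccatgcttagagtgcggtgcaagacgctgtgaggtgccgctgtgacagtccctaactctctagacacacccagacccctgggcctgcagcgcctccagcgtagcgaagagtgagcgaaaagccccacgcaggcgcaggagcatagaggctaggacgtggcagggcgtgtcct

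The motifs, searched on both strands, were TGAGTCA (bound by the activation factor AP-1), TATAAA (the TATA box), GGGCGG (the GC box), AGGTGTGA (bound by T-box factors such as T-bet), GTCTAGAC (the palindrome bound by SMAD proteins) and CCGGAAG (an ETS site). S100a4 and Anxa1 hold a TATA box that begins 31 and 32 bases before the start, and Anxa2 one that begins 17 bases before it. Anxa2 also holds the AP-1 motif, 95 to 89 bases before the start, and 3 GC boxes. S100a11, whose window is not printed, holds the AP-1 motif at 136 to 130 and at 38 to 32 bases before the start, and GC boxes as well. Lgals3 holds a GC box on the opposite strand, and S100a6 and Anxa5 hold none of these letters. In the 32851 promoter windows of the table, the AP-1 motif is present in 4.46%, the TATA box in 12.4% and the GC box in 32.7%. The T-box, SMAD and ETS letters, present in 1.12%, 0.167% and 6.91% of windows, were in none of the 7 windows. These matches describe the sequence only.

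In gene order on chromosome 3, S100a4 and S100a6 flank S100a5 within the S100 cluster, with S100a2 and S100a3 before S100a4 and S100a7a and S100a8 after S100a6. S100a10 and S100a11 are neighbours elsewhere on the same chromosome. Of the cluster genes beside S100a4 and S100a6, S100a3 and S100a5 were below the measured level on all 3 arrays, at most at 4.43 and 5.23. S100a8, which encodes a calprotectin subunit of myeloid cells, read 236 in KO NK1.1+, 121 in KO NK1.1− and 97.9 in control cells. Its partner gene S100a9 read 67.6 in KO NK1.1+, 34.9 in KO NK1.1− and 27.8 in control cells. These calprotectin genes were highest on the KO NK1.1+ array, whereas S100a4 and S100a6 were highest on the KO NK1.1− array. With scaling to the hybridisation controls S100a8 and S100a9 were lower on the KO NK1.1+ than on the KO NK1.1− array (log2 differences of -0.37 and -0.38). Of 3 measured granulocyte markers 0 were called above control on either KO array.

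The rest of the 3 families was mostly not measured. Of 10 other S100 genes on the array 3 were measured, of 7 other annexin genes 2, and of 6 other galectin genes 3. S100a13, which was 2.90-fold above control in KO NK1.1− cells, read 107 in KO NK1.1+, 208 in KO NK1.1− and 71.7 in control cells. Anxa4, which encodes another phospholipid-binding annexin, read 198 in KO NK1.1+, 242 in KO NK1.1− and 36.0 in control cells, 5.51-fold and 6.72-fold above control by its brightest probe set, while its other measured probe set gave log2 differences of 0.00 and 0.13. Lgals9, which encodes galectin-9, a ligand of the inhibitory receptor TIM-3, read 31.9 in KO NK1.1+, 118 in KO NK1.1− and 224 in control cells, and Lgals8 read 252 in KO NK1.1+, 347 in KO NK1.1− and 641 in control cells. Both of these galectin genes were thus highest in control cells, the reverse of Lgals1 and Lgals3, with Lgals9 7.04-fold and Lgals8 2.54-fold below control in KO NK1.1+ cells. Anxa7 was 2.10-fold below control in KO NK1.1+ cells by its brightest probe set, and the log2 differences of its 3 probe sets ran from -1.07 to 0.09.

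Among binding partners and receptors, 13 of 16 genes on the array were measured on at least one array of each comparison. In KO NK1.1− against control 2 were called higher and 0 lower (median log2 difference 0.33), where 7.97% of all measured genes were higher and 5.54% lower. In KO NK1.1+ against control 3 were called higher and 4 lower (median 0.02), where 9.72% of all measured genes were higher and 22.5% lower. Ahnak, which encodes a giant scaffold that docks the annexin A2 and S100A10 complex, read 13181 in KO NK1.1+, 5304 in KO NK1.1− and 1226 in control cells. It was 10.7-fold above control in NK1.1+ and 4.33-fold in NK1.1− cells, while its other measured probe set gave log2 differences of 0.81 and 0.03. Havcr2, which encodes TIM-3, was at least 3.63-fold above control in KO NK1.1− cells, at 34.7 against 8.92. Fpr2, a receptor of annexin A1 that is best known from myeloid cells, read 830 in KO NK1.1+, 14.5 in KO NK1.1− and 9.86 in control cells, high on 1 array only. Lgals3bp, which encodes the galectin-3-binding protein, read 26.3 in KO NK1.1+, 232 in KO NK1.1− and 258 in control cells. The receptor gene Ager, whose product RAGE binds S100 proteins, was at least 3.37-fold below control in KO NK1.1+ cells by its brightest probe set, and its other probe set differed by 0.02 on the log2 scale. The genes of the S100A6 partners, Cacybp and Sugt1, named here after their values were seen, were within 2-fold of control in KO NK1.1− cells, where S100a6 was high. Cacybp read 760 in KO NK1.1+, 1793 in KO NK1.1− and 1936 in control cells, and Sugt1 136 in KO NK1.1+, 366 in KO NK1.1− and 291 in control cells.

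Other genes widely used as markers of effector and memory T cells, a list of 16 on the array with 15 measured, were called higher for 8 and lower for 1 in KO NK1.1− against control (median log2 difference 1.42). In KO NK1.1+ against control 5 were called higher and 3 lower (median 0.13). Over all measured genes 7.97% were called higher and 5.54% lower in the first comparison, and 9.72% and 22.5% in the second. Fgl2, a secreted fibrinogen-like protein gene, read 241 in KO NK1.1+, 196 in KO NK1.1− and 31.0 in control cells. Klrg1, the terminal effector receptor gene, read 2615 in KO NK1.1+, 2326 in KO NK1.1− and 397 in control cells. These resemble Anxa1 and Lgals3 in being about level on both KO arrays on the deposited values. Itgb1, which encodes the β1 integrin, read 654 in KO NK1.1+, 2606 in KO NK1.1− and 596 in control cells by its brightest probe set, high on the KO NK1.1− array as Anxa2 was. Its 5 measured probe sets ran from 0.19 to 2.13 in KO NK1.1− against control and from -0.57 to 2.33 in KO NK1.1+ against control, so this likeness depends on the probe set. Cd44, the hyaluronan receptor gene of antigen-experienced T cells, read 2444 in KO NK1.1+, 2057 in KO NK1.1− and 568 in control cells. Its 3 measured probe sets ranged from 1.26 to 1.86 in KO NK1.1− cells and from 0.00 to 2.10 in KO NK1.1+ cells. Hopx, which encodes a homeodomain-only cofactor of effector T cells, read 2827 in KO NK1.1+, 1927 in KO NK1.1− and 638 in control cells, 4.43-fold and 3.02-fold above control, and its other probe set gave log2 differences of 0.30 in KO NK1.1+ and 1.24 in KO NK1.1− cells. Capg, an actin-capping protein gene, was the 1 gene called lower in KO NK1.1− cells, at 60.0 against 124.

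**Figure D3:**
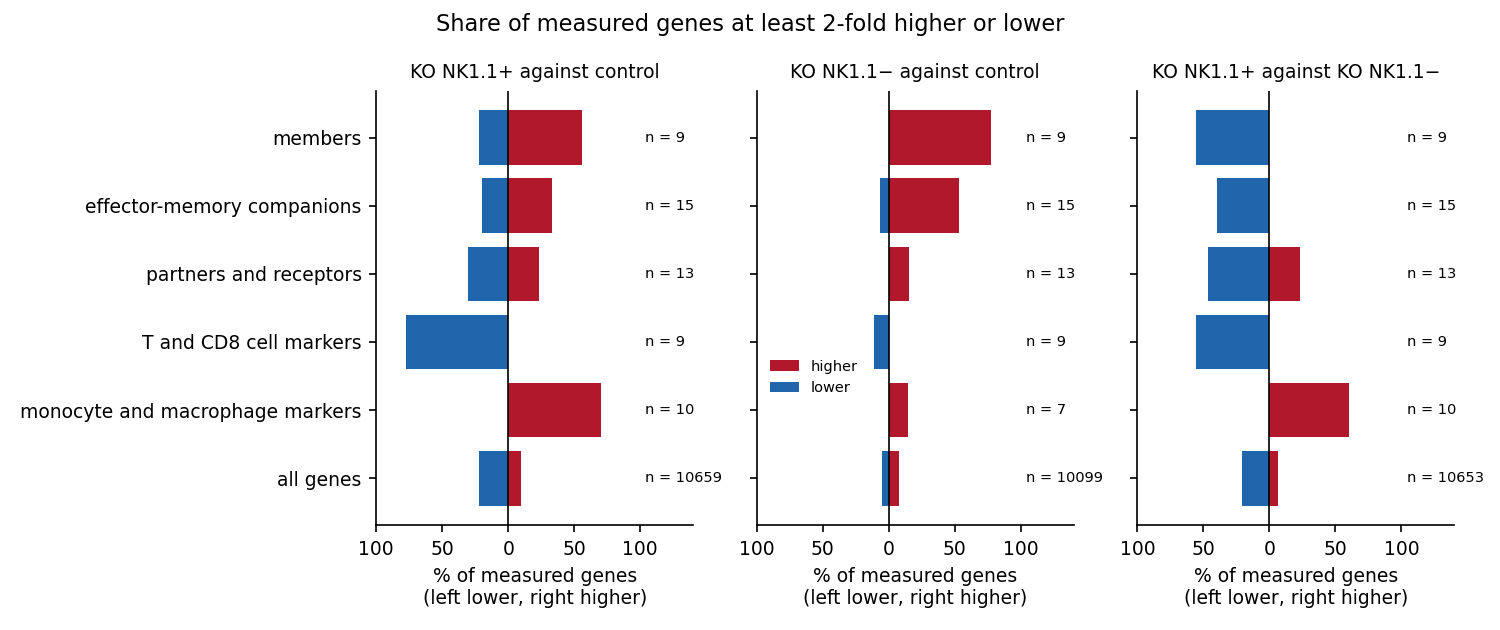
Percentage of measured genes at least 2-fold lower (bars to the left) or higher (bars to the right) in the 3 comparisons, for the 9 members, for the lists of effector and memory genes, partners and receptors, CD8+ T cell markers and macrophage markers, and for all genes, with the number measured beside each bar. In KO NK1.1− against control 7 of 9 members are higher and 0 lower, and in KO NK1.1+ against KO NK1.1− 5 of 9 are lower and 0 higher.

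Set against KO NK1.1− cells, KO NK1.1+ cells were called lower for 5 of the 9 genes and higher for 0, where 20.9% of 10653 measured genes were called lower and 6.43% higher. The lower genes were Anxa2, Anxa6, Anxa5, S100a4 and S100a6, and the median log2 difference was -1.01 over the 9 genes and -0.24 over all genes. With an offset of 32, quantile normalization or centring 4 of the 9 genes were called lower. Over all genes the lower calls were then 1180 of 18193, 1666 of 10492 and 1440 of 10653. With scaling to the hybridisation controls all 9 were called lower, where 7288 of 10884 measured genes were. The medians on that scale were -2.34 over the 9 genes and -1.42 over all genes. On the deposited values Anxa1 and Lgals3 differed by 0.03 and -0.11, and Lgals1 by -0.83 with its brightest probe set and -1.54 with the other. The 4 probe sets of Anxa6 ran from -2.63 to 0.32 there, so its lower call rests on the choice of probe set. The split of calls over all genes depends on the scaling. It was 685 higher and 2225 lower on the deposited values, 927 and 1666 after quantile normalization, 1141 and 1440 after centring on the median gene, and 197 and 7288 with scaling to the hybridisation controls. For KO NK1.1+ against control the corresponding splits were 1036 and 2400, 1299 and 1913, 1442 and 1812, and 325 and 6521.

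Measures of RNA quality, probe set agreement and cell type markers also differed between the arrays. For Actb the 3′ end gave 81.9 times the 5′ signal on the KO NK1.1+, 12.3 times on the KO NK1.1− and 6.02 times on the control array, and for Gapdh 10.8, 26.7 and 17.8 times. Where a gene had several measured probe sets, their log2 differences varied around the gene's mean with an SD of 0.85 for KO NK1.1+ against control and 0.44 for KO NK1.1− against control. Of 13 monocyte and macrophage markers on the array, 10 were measured on the KO NK1.1+, 7 on the KO NK1.1− and 5 on the control array, with summed intensities of 9428, 267 and 174. Csf1r alone read 7666 in KO NK1.1+, 54.5 in KO NK1.1− and 30.5 in control cells, while Cd14, Itgam and C1qa were below the level on all 3 arrays. B and plasma cell markers summed to 13352 on the KO NK1.1+, 1260 on the KO NK1.1− and 2278 on the control array. Ighm (10744) and Jchain (2282) made up most of that sum on the KO NK1.1+ array. Cd79b and Ms4a1 were below control there (log2 differences of -1.13 and -0.96), and Cd79a and Pax5 were below the level on all 3 arrays. Cd22 was above control on both KO arrays, at 182 in KO NK1.1+, 359 in KO NK1.1− and 82.7 in control cells. Dendritic cell markers summed to 1847, 447 and 558 in the same order, with 4 of 8 measured on each array, H2-Aa alone at 1517, 289 and 325, and Flt3, Siglech, Batf3 and Xcr1 below the level on all 3. NK cell markers summed to 1887, 2186 and 668. Eomes, at 734, 2085 and 593, made up most of that sum on the KO NK1.1− and control arrays, while Klre1 read 1077, 80.2 and 11.7. Klra7 read 45.5, 8.59 and 51.3, Klra8 was measured on the KO NK1.1+ array alone (25.1), and Ncr1 was below the level on all 3. Of 7 fibroblast and endothelial markers Dcn (97.0) and Col1a2 (90.3) were measured on the KO NK1.1+ array alone. Pecam1 was measured on the control array alone (46.2), and Col1a1, Col3a1, Cdh5 and Kdr were below the level on all 3. The 9 measured T and CD8 cell markers summed to 7331, 13240 and 17197 in the same order, and all of them were measured on every array. In KO NK1.1+ against control 7 of the 9 were called lower and 0 higher, where 22.5% of all measured genes were called lower. The 2 within 2-fold were Cd3e and Thy1. In KO NK1.1+ against KO NK1.1− 5 of the 9 were called lower and 0 higher, where 20.9% of all measured genes were called lower. Macrophages are known to express Lgals3, Anxa1 and several S100 genes. In KO NK1.1+ against control, 7 of 10 measured macrophage markers and 5 of the 9 genes were called higher, where 9.72% of all measured genes were. In KO NK1.1+ against KO NK1.1− 6 of 10 and 0 of 9 were called higher, where 6.43% of all measured genes were. The summed intensity of the 9 genes was 20529 in KO NK1.1+, 36083 in KO NK1.1− and 12161 in control cells. Most of each sum came from Lgals1 (8443, 15037 and 4114) and S100a10 (7462, 9813 and 4505), so it says little of the other genes. In KO NK1.1− cells the macrophage markers called above control were 1 of 7, Cybb. The part of other cells or of RNA quality in the values of the KO NK1.1+ array was not tested, and in sorted bulk RNA a change per cell cannot be told apart from a change in the make-up of the fraction.

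**Figure D4:**
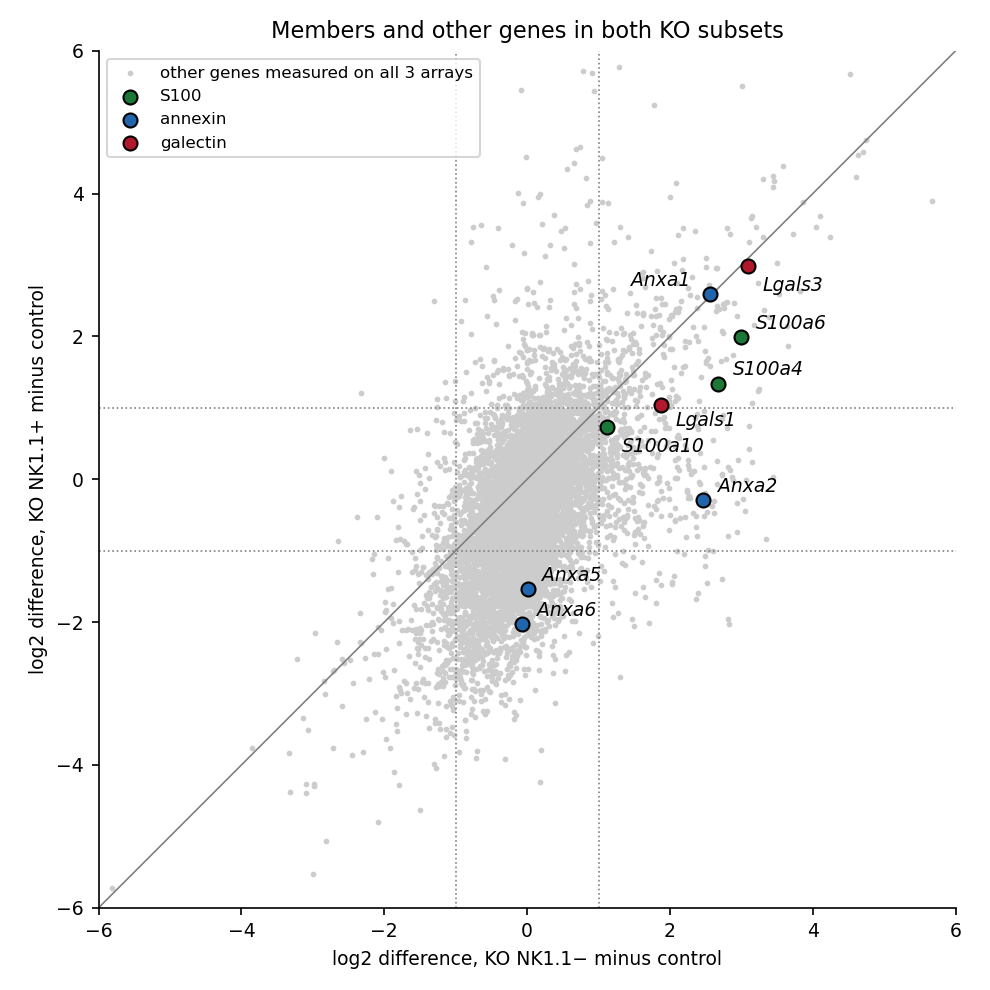
Log2 difference from control in KO NK1.1− cells (horizontal) and KO NK1.1+ cells (vertical) for the 9 members (S100, annexin and galectin genes in separate colours) and the other genes measured on all 3 arrays (grey), with dotted lines at 2-fold and a diagonal of equal difference. Anxa1 and Lgals3 lie close to the diagonal, S100a4, S100a6 and Lgals1 lie below it, and Anxa2 lies at 2.47 and -0.29.

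By likeness of pattern, the genes nearest to each member were taken as those with the smallest distance between their pairs of log2 differences from control, over 8936 genes measured on all 3 arrays. Prdm1 and Klrg1 lay nearest to Anxa1, at distances of 0.08 and 0.13. Serpinb6b and Slamf7 lay nearest to Lgals3 (0.27 and 0.34), and Ttc39c and Epas1 nearest to S100a6 (0.24 and 0.27). Ctla2b and Dsg2 lay nearest to S100a4 (0.26 and 0.28), and Ncaph and Kif18b nearest to Anxa2 (0.06 and 0.09). The genes nearest to Anxa5 (Psmd10) and Anxa6 (Cfap36) lay at 0.03 each. The 3 arrays fix such a pattern by 2 numbers only, so the likeness is a description.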

How the data were processed

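The deposited table holds 1 intensity per probe set and array on a linear scale, with 45101 probe sets. The intensity values were made by the authors with GCRMA 1.1.3, per the submitters' processing notes, a method that corrects background by probe sequence, normalizes arrays and summarises probes. The labels state none of its settings. The array annotation names exactly 1 gene for 34945 probe sets, several for 932 and none for 9160, beside 64 control probe sets. Entrez identifiers of the 9 genes matched the same symbols in RefSeq (GRCm38.p6).

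From these values log2 differences between arrays were computed in Python 3.11.15 with pandas 2.3.3, after raising values to the level of 9.57. The call rule was checked on simulated data. The members and lists were chosen with earlier results of these data known. Cell type markers and the S100A6 partners were named apart from any rule on size. Other genes named beside the members were those of the lists past 2-fold with the largest differences, neighbours of a member in gene order, and the 2 genes nearest in pattern. With 1 array per group no test was made and precision is limited by that number. Alternatives covered the level, an offset, normalization, scaling and the choice of probe set.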

Additional observations from a re-analysis of the deposited data

Results flagged for a closer look

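Anxa2 went opposite ways against control in the KO subsets, with a log2 difference of -0.29 in NK1.1+ and 2.47 in NK1.1− cells. The value in NK1.1+ cells is within 2-fold on the deposited values, next to 0 with quantile normalization or centring (-0.04 each) and past 2-fold with scaling to the hybridisation controls (-1.53), and the difference between the subsets was not tested. Anxa5 also had opposite signs, at -1.54 in NK1.1+ and 0.0067 in NK1.1− cells, where the second value is next to 0, and this difference was not tested either. The probe set shared by S100a11, S100a11-ps and Gm12854, which entered no count, was above control by 0.92 on the log2 scale in NK1.1+ and 1.54 in KO NK1.1− cells.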

How the results depend on the processing

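With 1 array per group no replicate could be left out. No paired analysis was possible because each group has a single array. The 7 alternatives kept all 7 members above control in KO NK1.1− cells, except that 6 were called when probe sets were averaged and 3 with unsuffixed probe sets, which measure only 5 of the genes. S100a10 was then at 0.90, and Anxa2 at 0.90 when averaged. Averaging took in unmeasured probe sets of Anxa1 and Anxa2 and moved the members' median in KO NK1.1− against control to 1.29. Over all genes in that comparison 536 of 9456 measured were called higher when averaged and 651 of 8620 with unsuffixed probe sets. Scaling to the hybridisation controls moved the median of all genes in KO NK1.1+ against control to -1.31, and relative to it the members' median was 1.11, against 1.20 on the deposited values. On that scale the members' median turned to -0.20, and Lgals1 turned to -0.20. There 2 of 9 members were called higher, where 325 of 10425 measured genes were. Against KO NK1.1− cells the members' median moved to -2.34 with that scaling, and Anxa1 turned to -1.30. All 9 members were called lower, where 7288 of 10884 measured genes were. In KO NK1.1+ against control, unsuffixed probe sets gave 3 of 5 measured members higher and 1 lower. Over all genes they gave 843 higher and 2224 lower of 9137 measured. The mean of probe sets gave 1 of 9 members lower, and 1818 of 9891 measured genes. Unsuffixed probe sets gave 3 of 5 members lower between the KO arrays, and 2026 of 9102 measured genes. Over all genes, a level at the 75th percentile (54.5) gave 558 higher and 1468 lower calls in KO NK1.1+ against control, 492 and 309 in KO NK1.1− against control and 322 and 1281 between the KO arrays. The offset of 32 gave 575 and 1460, 471 and 235, and 355 and 1180. The mean of probe sets gave 555 higher, 536 and 356, and 329 higher in the same comparisons. Scaling to the hybridisation controls gave 325 and 6521 for KO NK1.1+ against control and 197 and 7288 between the KO arrays, and centring gave 1141 and 1440 there. Where no construction of the alternative shows it, the cause was not tested.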
